A study of Mus musculus with 6 samples.

Results

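The 6 libraries of the series were compared by the number in their titles, the libraries numbered 1 to 3 (isotype, BiTS(mut) and BiTS, the first set) against those numbered 4 to 6 (isotype, BiTS(mut) and BiTS, the second set). All 6 of 6 libraries enter the comparison, 3 in each set, and each set holds 1 library of each treatment. Every library came from cells of OT-I mice, whose transgenic T cell receptor recognises the ovalbumin peptide SIINFEKL on the class I molecule H2-Kb. The labels give splenocytes as the tissue, naive primary CD8 T cells as the cell type, SIINFEKL as the stimulus and 48 h as the time for all 6. The isotype libraries are the antibody control, and BiTS is a bispecific molecule built to bring the inhibitory receptor LAG-3 next to the T cell receptor. What the mutation in BiTS(mut) changes is not stated in the labels. The labels give neither the age or number of the mice, nor the culture behind a library, nor a batch, a date or a sequencing run. The 2 sets therefore rest on title numbers, while the library names number the isotype pair 1 and 4 and the other pairs 1 and 2. Because separate cultures or animals are not stated, the p-values below measure only the spread between these samples, which may be technical.

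The peptide is presented on class I molecules, which all cells express, and the labels do not state which cells presented it here. Dendritic cells take up and digest protein in endosomes and lysosomes and show the fragments on MHC molecules. Conventional dendritic cells of the Xcr1-positive, Clec9a-positive lineage depend on the cytokine receptor Flt3 and are specialised in presenting antigen to CD8 T cells. A stimulated CD8 T cell switches from rest to growth: it induces Myc, ribosome assembly, sterol and nucleotide synthesis and replication, and it makes cytokines and cytotoxic granules. RNA from T cells and from the other cells of a culture is pooled in a bulk library. Fewer cells of a type and less RNA per cell cannot be told apart in such data.

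Gene counts ran from 10813123 to 15239077 per library. The 3 libraries of the second set held less gene RNA per spike-in molecule than the first, with gene to ERCC count ratios of 17.6, 12.3 and 18.4 against 23.8, 28.8 and 25.5 (isotype, BiTS(mut), BiTS). Transcripts of mitochondrial genes took 10.97%, 10.7% and 11.03% of gene counts in the second set against 7.87%, 8.78% and 9.14% in the first. A chi-square comparison of the counts, divided by its degrees of freedom, gave 3.98 to 9.10 for pairs of libraries in the same set and 26.8 to 39.99 for pairs from different sets, so no 2 libraries agreed within sampling noise. The V segment of the OT-I beta chain, Trbv12-1, held 98.7% to 99.5% of all Trbv counts in each library (95% Wilson intervals from 98.0% to 99.7%, counting error only), so both sets carried the labelled receptor. The Y-linked gene Ddx3y was present in every library, with at least 405 counts, and Xist had at most 6.

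Of 13996 genes tested, 7382 (52.7%) differed between the sets at an adjusted p under 0.05, with treatment as a covariate (edgeR quasi-likelihood test, Benjamini-Hochberg adjustment). Of these, 3618 were higher (25.9% of genes tested) and 3764 lower (26.9%) in the second set. At least 2-fold differences were found for 438 genes that were higher (3.13%) and 735 that were lower (5.25%), and 49 genes in each direction passed 4-fold. CPM, the gene's count scaled to library size by TMM, did not overlap between the sets in 7796 genes (55.7%). Any list of genes is read below against these shares, so that a list with about 1 in 4 of its genes called in a direction does not stand apart. The fit left 2 residual degrees of freedom per gene and added 45.9 from the trend over all genes, so a small p mostly reflects that shared trend. Within each treatment the difference between the sets was that of 1 library against 1 library, and 69.8% of all genes tested had the same sign in all 3 treatments.

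All directions below are relative to a typical gene of these libraries, since TMM scaling sets the median log2 fold change near 0 (0.02). When the libraries were scaled to the ERCC spike-ins, the median of all genes moved to -0.74, and of 6123 calls 61 were higher and 6062 lower. When they were scaled to the 22 T cell identity genes, the median moved to -0.17, and of 7169 calls 1713 were higher and 5456 lower. All 25 gene lists with a median above 0 turned negative under spike-in scaling and 15 of them turned negative under T cell scaling, whereas none of the lists with a median below 0 turned positive under either. Since both scalings shift all genes down by nearly the same amount, lists below 0 had to stay there, which tests nothing. Of the 124 named genes called higher, 83 turned negative under spike-in scaling and 5 under T cell scaling. The point at which the spike-ins were added is not given in the sources used here.

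Genes of dendritic cells were lower in the second set. Of the 17 tested genes of the conventional dendritic cell list, 15 were lower and 2 higher in the second set, with a median log2 fold change of -1.34 against 0.02 for all genes, of which 26.9% were lower. All 17 had CPM values that did not overlap between the sets, against 55.7% of all genes tested. The medians within isotype, BiTS(mut) and BiTS were -1.51, -1.15 and -1.09. Leaving out any 1 library gave 15 lower and 2 higher again. The summed level of the 22 listed genes was 2097, 1897 and 1784 CPM in the first set (isotype, BiTS(mut) and BiTS, the order used throughout) and 1529, 1515 and 1406 CPM in the second, without overlap. Most of it came from Irf8, Cd8a and Batf3, which activated T cells also express. Their means were 932, 215 and 126 CPM of 1926 CPM in the first set. In the second set they were 721, 340 and 162 CPM of 1483 CPM.

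**Figure D1:**
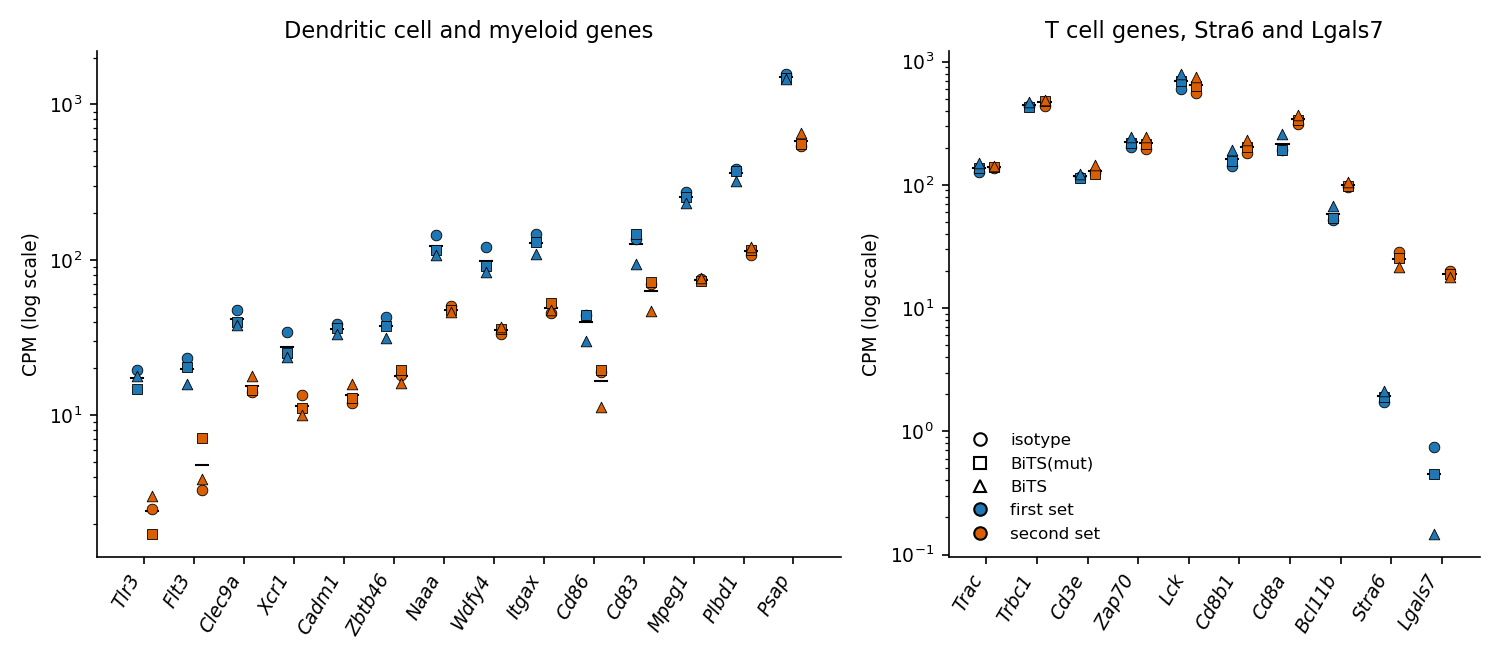
CPM of 24 genes in each of the 6 libraries, on a log scale, with the first set in blue and the second in orange, a symbol for each treatment and a bar at the mean of each set. The dendritic cell and myeloid genes on the left were lower in all 3 libraries of the second set. Scaling to spike-ins or T cell genes shifts all genes further down and does not test this. Trac, Zap70 and Lck overlapped between the sets, and Stra6 and Lgals7 were higher in all 3 libraries of the second set under each of the scalings.

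Flt3, the receptor on which dendritic cell development depends, stood at 23.2, 20.3 and 15.7 CPM in the first set and at 3.30, 7.15 and 3.88 CPM in the second. The sets did not overlap, and the log2 fold change was -2.04 ± 0.16 (± SE of the edgeR fit, n = 3 a set, adjusted p = 6.58e-15). Log2 fold changes below are given in the same way. Like the p-value, this SE mostly reflects the trend shared over all genes. It is not the spread of the 3 within-treatment differences: those of Hspa1a were -1.64, -2.89 and -2.74, with an SE of 0.13. Tlr3, the endosomal sensor of double-stranded RNA, was the most strongly lowered gene of the list and of the 12 largest decreases that the naming rule took. It measured 19.5, 14.7 and 17.7 CPM in the first set and 2.48, 1.73 and 3.03 CPM in the second, a log2 fold change of -2.85 ± 0.18 (adjusted p = 1.07e-18), so that each library of the second set lay under the lowest of the first by a wide margin. Clec9a, a receptor for dead cells, fell from 47.7, 39.5 and 38.2 CPM to 14.03, 14.6 and 17.8 CPM. Xcr1, the receptor for the chemokine XCL1 that activated CD8 T cells release, measured 34.2, 25.05 and 23.6 CPM in the first set against 13.4, 11.2 and 10.03 CPM in the second. These 2 surface receptors define the cross-presenting lineage, and their log2 fold changes were -1.43 ± 0.11 and -1.25 ± 0.12.

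Other genes of that lineage differed by similar amounts. The log2 fold changes were -1.42 ± 0.11 for Cadm1, an adhesion molecule, -1.46 ± 0.09 for Wdfy4, which is required for cross-presentation of cell-associated antigen, and -1.34 ± 0.08 for Naaa, a lipid amidase. Itgax, which encodes CD11c, was 146, 130.4 and 109.6 CPM in the first set and 45.7, 52.4 and 47.7 CPM in the second. Zbtb46, a transcription factor of conventional dendritic cells, had a log2 fold change of -1.05 ± 0.10. Bcl6, a repressor expressed by dendritic cells and by follicular helper T cells, had one of -1.39 ± 0.10. Irf8, which is required for this lineage but also induced in activated T cells, was less reduced, at -0.37 ± 0.06. The 2 members that were higher, Batf3 (0.36 ± 0.07) and Cd8a (0.67 ± 0.07), are both expressed by activated CD8 T cells, and Cd8a also stands in the T cell identity list. Scaled to the T cell genes, 1 of the 17 was higher and 15 were lower, and scaled to spike-ins 0 were higher and 15 lower. Both scalings shift all genes down by nearly the same amount, so these counts do not test the decrease. Several markers of the other conventional lineage were close to 0, with at most 4 counts of Sirpa and at most 1 of Cd209a in any library. Clec10a reached 12 counts and Mgl2 13 in their highest libraries. Clec12a and Klf4, also in the list, were tested and lower on the TMM scale.

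Genes of mature, migratory dendritic cells were lower by a smaller amount. Of 19 tested, 14 were lower and 3 higher, with a median of -0.61, and their summed level was 3271, 3490.2 and 2855 CPM in the first set against 2200.1, 2217 and 1940.0 CPM in the second. The sum is not a level of dendritic cells alone. Serpinb6b, also in the cytotoxic effector list, and Ccr7 held means of 820 and 730 CPM of 3206 CPM in the first set. In the second set they held 421 and 467 CPM of 2119 CPM. Cd86, a ligand of the costimulatory receptor CD28, measured 43.9, 44.4 and 30.2 CPM in the first set and 18.9, 19.7 and 11.4 CPM in the second. Cd83, a surface marker of maturation, had a log2 fold change of -1.003 ± 0.07, and Serpinb6b, a protease inhibitor of the serpin family, one of -0.96 ± 0.07. Ccr7, the receptor that directs both mature dendritic cells and naive T cells to lymphoid tissue, had one of -0.65 ± 0.07. Il12b, the p40 chain of IL-12, and Ccl22, a chemokine for CCR4, were lower on the test (-0.74 ± 0.12 and -0.39 ± 0.07) but overlapped between the sets, because the BiTS library of the first set lay below the isotype library of the second. Among the genes that were higher was Socs2, a feedback inhibitor of cytokine signalling, at 18.5, 18.9 and 18.6 CPM against 32.5, 32.5 and 31.2 CPM (0.78 ± 0.10; 0.02 scaled to spike-ins).

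The macrophage and monocyte list was lower by a similar amount, although the genes that define macrophages were barely detected. Of its 30 genes 16 were tested, of which 11 were lower and 1 was higher, with a median of -1.31. The summed level of the 30 genes was 1017, 985 and 851 CPM in the first set and 360.3, 363 and 367 CPM in the second. Mpeg1, a pore-forming protein of phagocytes, was 272, 253 and 231 CPM in the first set and 75.1, 72.6 and 76.001 CPM in the second, a 3.37-fold difference (log2 fold change -1.75 ± 0.07, adjusted p = 3.35e-24). Plbd1, a lysosomal phospholipase-like protein, was 383, 375 and 323 CPM against 107, 116 and 120.3 CPM (-1.65 ± 0.07 on the log2 scale). Hmox1, which degrades haem, was 148, 161 and 142 CPM against 45.6, 50.7 and 56.6 CPM (-1.56 ± 0.08). In these 3 genes the second set was tightly grouped and far below the first.

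Defining macrophage markers were absent or nearly so from both sets. Spic, the factor of red pulp macrophages, had 0 counts in all 6 libraries, Fcgr1 and Marco at most 2 counts, Mertk at most 1, Cd163 at most 2 and Adgre1, which encodes F4/80, at most 6. Itgam (CD11b) gave 8, 15 and 10 counts in the first set and 0, 2 and 0 in the second, and Cd14 gave 19, 9 and 10 against 4, 6 and 5. Mpeg1 and Plbd1 are also expressed by conventional dendritic cells, and these libraries do not assign them to one cell type. The largest difference in the list was in Timd4, a receptor for phosphatidylserine, at 21.9, 16.2 and 15.3 CPM in the first set and 4.31, 3.45 and 2.84 CPM in the second (-2.33 ± 0.16). The 1 gene of the list that was higher was Ly6c2 (3.97, 3.11 and 2.59 CPM against 16.96, 14.9 and 12.8 CPM, 2.21 ± 0.17), a Ly6 family gene that monocytes and memory CD8 T cells express and whose reads may be shared with its close copy Ly6c1.

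Many defining markers of the remaining spleen cells were near 0 in both sets, though other members of their lists were detected. Ms4a1 gave at most 5 counts, Pax5 at most 1 and Igkc at most 3 counts in a library, the neutrophil genes S100a8 and S100a9 gave 0, and Hbb-bs, the adult beta globin, gave 0. Cd4 gave 1 to 7 counts and Foxp3 2 to 6. Siglech, a plasmacytoid dendritic cell receptor, gave 0 counts, although Tcf4 (-1.25 ± 0.11) and Tlr9 (-1.56 ± 0.19) of that list were lower and Bst2 (0.36 ± 0.07), an interferon-induced tether, was higher. Of the 8 tested B cell genes, 3 were higher and 2 lower. The higher ones included Ighm (53.99, 52.8 and 70.2 CPM against 84.8, 83.1 and 95.2 CPM), whose constant region is also transcribed outside B cells, and Vpreb3, a surrogate light chain gene (1.33 ± 0.42). The lower ones included Fcrla, an intracellular Fc receptor-like protein of B cells (-2.32 ± 0.31). Itga2b, the platelet integrin CD41, had 271 to 651 counts per library (-0.71 ± 0.10), Kit, the receptor of mast and progenitor cells, 80 to 297 (-0.81 ± 0.13), and Mmp9, a protease of the neutrophil list, 33 to 101 (-0.76 ± 0.21), and all 3 were lower in the second set. Trdc, the constant segment of the delta receptor chain, had 496 to 613 counts and was higher (0.25 ± 0.08; 0.05 on T cell scaling and -0.52 on spike-in scaling).

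T cell identity genes were level or slightly higher in the second set on the TMM scale, with 11 of 22 higher, 3 lower and a median of 0.16; scaled to spike-ins the median was -0.60. Their summed level was 4236, 4442 and 4894 CPM in the first set and 5119, 5124 and 5366 CPM in the second. The constant chain of the receptor, Trac, did not pass the test (128, 137 and 150.2 CPM against 137, 139.8 and 143 CPM, log2 fold change 0.02 ± 0.07). The same held for Trbc1 (0.07 ± 0.07), for the kinases Lck (-0.11 ± 0.06) and Zap70 (-0.02 ± 0.07), and for Cd3e (0.15 ± 0.07). Higher values came from Bcl11b, a factor that maintains T cell identity, at 52.3, 53.7 and 66.8 CPM against 96.8, 97.8 and 105 CPM (0.80 ± 0.08), from Cd8a (193, 192 and 260.0 CPM against 313, 336 and 370.0 CPM), and from Thy1 (0.60 ± 0.07) and Lat (0.51 ± 0.07). Of 25 genes of proximal T cell receptor signalling, 5 were higher and 9 lower, with a median of -0.12. Cblb, a ubiquitin ligase that restrains T cell activation, was 343, 402 and 398 CPM against 213, 232 and 251 CPM (-0.72 ± 0.07), and the phosphatase gene Ptpn22 had a log2 fold change of -0.53 ± 0.07.

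Genes of antigen capture and processing were lower together with the dendritic cell genes. Of 12 genes of MHC class II presentation, 11 were lower and 0 higher (median -0.92), and their summed level was 1871, 1894 and 1582 CPM in the first set and 796, 855 and 759 CPM in the second. Cd74, the invariant chain, measured 828, 838 and 709 CPM against 309, 334 and 307 CPM (-1.32 ± 0.07). The chains H2-Aa (-1.20 ± 0.07), H2-Ab1 (-0.85 ± 0.07) and H2-Eb1 (-1.01 ± 0.07) of the class II molecules and Ctss (-1.48 ± 0.07), the protease that trims the invariant chain, were lower with it. Activated mouse T cells hold little class II RNA of their own as a rule, and the part of the dendritic cells in this difference was not tested. Class I genes, which all cells express, differed far less: 6 of 16 were lower and 3 higher, with a median of -0.07. H2-K1, whose product presents SIINFEKL, was 2761, 2892 and 2942 CPM against 2315, 2459.6 and 2737 CPM (-0.20 ± 0.06), B2m was lower (-0.54 ± 0.07) and Psmb10, an immunoproteasome subunit, higher (0.50 ± 0.08; 0.31 on T cell scaling and -0.26 on spike-in scaling).

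Fc receptors and their signalling partners formed the list with the lowest median of all 62 lists, -1.37, with 9 of 10 lower and 0 higher. Clec7a, the receptor Dectin-1 for fungal glucans, was 27.7, 32.1 and 25.9 CPM against 8.07, 7.15 and 7.38 CPM (-1.92 ± 0.13), and Fcer1g, the shared gamma chain, 11.6, 12.8 and 12.8 CPM against 4.03, 3.70 and 4.07 CPM (-1.66 ± 0.17). The kinases Lyn (-1.27 ± 0.13) and Syk (-1.20 ± 0.11), which take the place of Lck and Zap70 in myeloid and B cells, were both lower, while Lck and Zap70 did not pass the test. Of 7 genes of complement and opsonins, 6 were lower, among them Mfge8, which bridges dying cells to phagocytes (834, 847 and 625 CPM against 364, 391 and 339 CPM, -1.07 ± 0.07), and properdin, Cfp (-1.26 ± 0.10).

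Innate sensors did not move as a block: 9 of 18 were lower and 4 higher. Those that were lower included Tlr3, Tlr9, Nlrp3 (-0.77 ± 0.11) and Tmem173, which encodes STING (-0.42 ± 0.07). Tlr13, a sensor of bacterial ribosomal RNA, measured 3.15, 4.02 and 2.44 CPM in the first set and 0.0917, 0.411 and 0.189 CPM in the second, levels near the limit of detection in the second set. The adaptor Myd88 did not pass the test (-0.02 ± 0.09). Of 14 inflammatory cytokines of myeloid cells, 10 were lower and 1 higher. Cxcl9, which attracts activated T cells through CXCR3, was 65.7, 57.9 and 51.3 CPM against 31.4, 31.99 and 22.9 CPM (-1.02 ± 0.09), and Cxcl16 had a log2 fold change of -1.003 ± 0.07. The exception was Tnf (57.7, 48.9 and 45.4 CPM against 75.7, 75.3 and 61.4 CPM, 0.49 ± 0.08; 0.29 on T cell scaling and -0.28 on spike-in scaling), which activated T cells also make.

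Lysosomal genes were lower in 27 of 34 cases and higher in 1 (median -0.55, and -0.65, -0.60 and -0.44 within isotype, BiTS(mut) and BiTS). Psap, the precursor of the saposins, which present lipids to lysosomal hydrolases, was 1576, 1479 and 1462 CPM in the first set and 539, 560.2 and 653 CPM in the second, a 2.59-fold difference (-1.37 ± 0.07, adjusted p = 1.2e-21). Ctsc (-1.33 ± 0.07), which activates granzymes by trimming them, Grn (-0.97 ± 0.07), the progranulin gene, and Lamp1 (-0.90 ± 0.07), a protein of the lysosomal membrane, were lower as well. Laptm5 (-0.14 ± 0.07) and Ctsz (-0.06 ± 0.07) did not pass the test. The 1 gene that was higher was Ctsd, the aspartyl protease cathepsin D, with 42.1, 48.1 and 48.9 CPM against 59.8, 57.9 and 60.4 CPM (0.35 ± 0.08). Lysosomes occur in every cell, and the part of the dendritic cell markers that moved with this list was not tested.

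Many lysosomal genes share a promoter element, the CLEAR motif, whose core is the palindrome TCACGTGA. In the 250 bases upstream of the annotated starts (RefSeq, GRCm38.p6), 5 of the 26 lysosomal genes with a promoter entry held these letters, or 19.2%, against 0.907% of all 27025 genes with an entry and 1.82% of the 9916 that were tested. Both strands are covered, since the motif reads the same on each. The windows below, of 60 bases each and 5′ to 3′ on the gene's strand, are shown because their genes include 2 that were lower and the 1 that was higher, with the motif in capitals.
Mcoln1: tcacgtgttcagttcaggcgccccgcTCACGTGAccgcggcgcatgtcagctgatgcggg
Ctsa: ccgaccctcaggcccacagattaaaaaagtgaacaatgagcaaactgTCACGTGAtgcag
Ctsd: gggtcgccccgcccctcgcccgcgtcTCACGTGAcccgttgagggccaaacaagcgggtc
The windows lie at chr8:3500447-3500506 on the plus strand (Mcoln1), at chr2:164833713-164833772 on the plus strand (Ctsa) and at chr7:142387893-142387952 on the minus strand (Ctsd). Mcoln1, a calcium channel of the lysosomal membrane, was 87.4, 88.1 and 84.1 CPM against 38.1, 43.5 and 43.3 CPM (-1.06 ± 0.08), and Ctsa, a protease that protects other lysosomal enzymes, 146, 159 and 155 CPM against 96.6, 104 and 118 CPM (-0.53 ± 0.07). Ctsd, with the same letters 99 bases before its start, was higher. Among the genes with the motif, Gla (-0.56 ± 0.14) and Atp6v1a (-0.27 ± 0.07) were lower, so that 4 of the 5 were lower and 1 was higher. In the whole list, which includes these 5, 27 of 34 were lower. With 5 genes the 2 shares cannot be compared, and a part of the motif in the direction was not tested. A match is a description of these letters and does not show that a factor binds there.

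**Figure D2:**
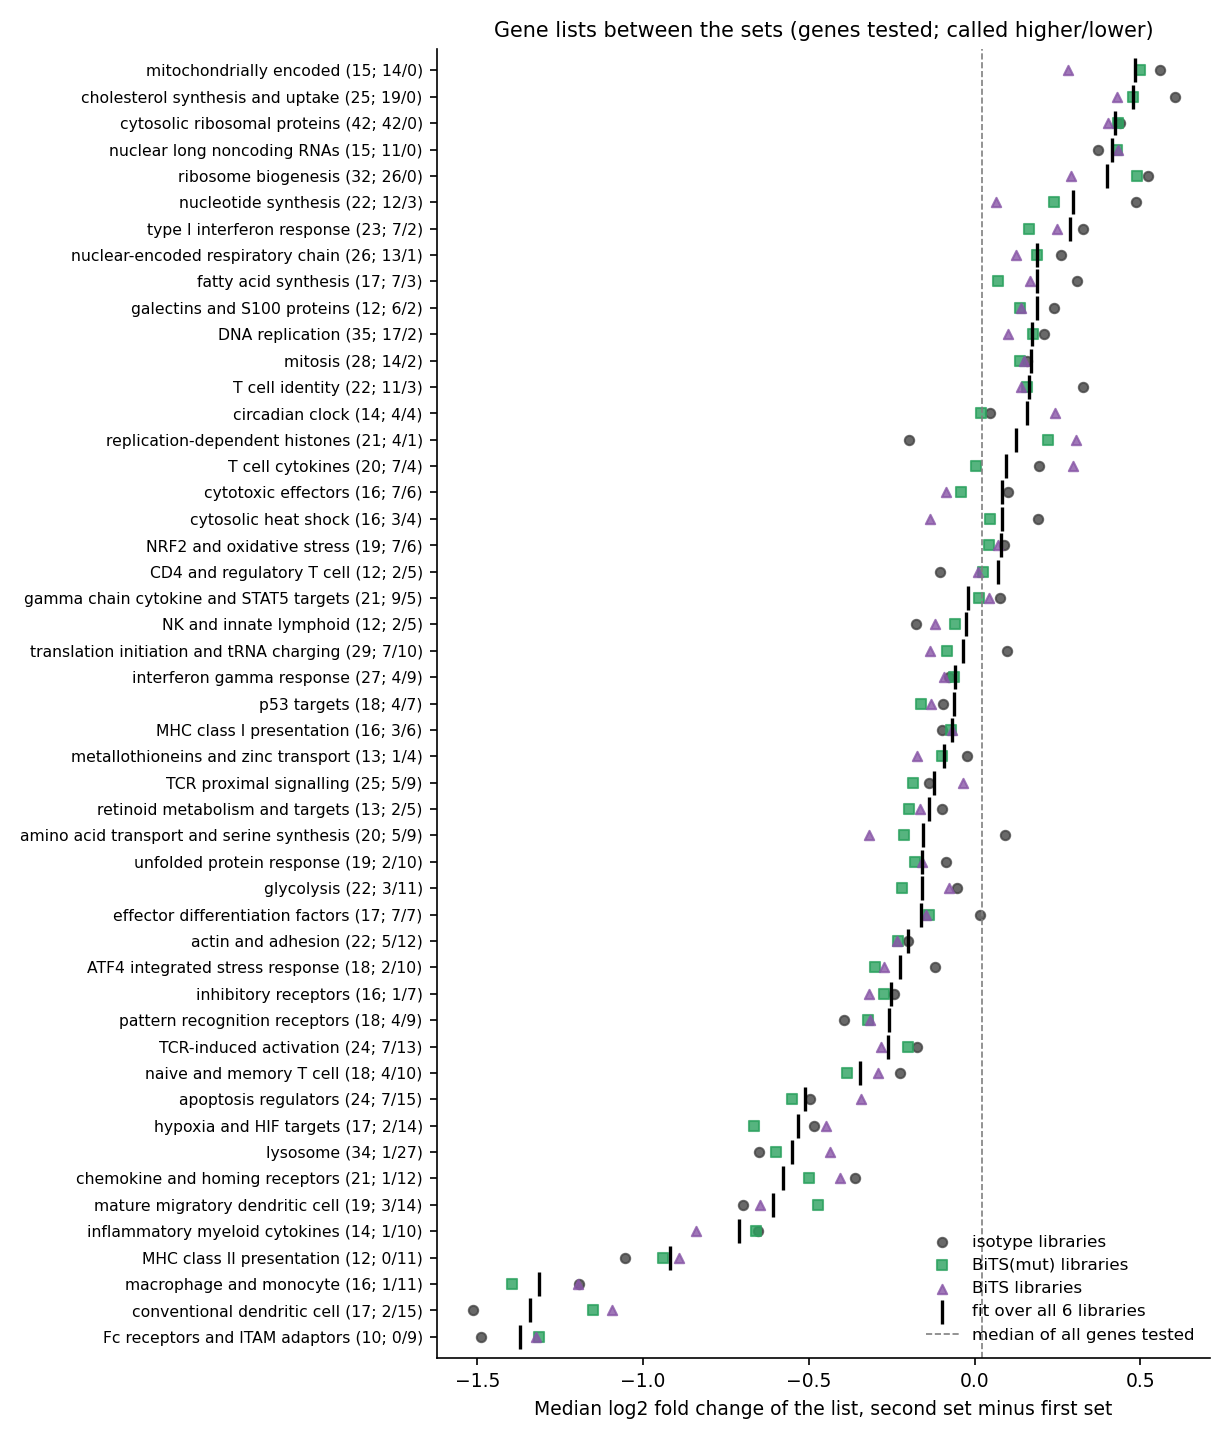
Median log2 fold change (second set minus first set) of the gene lists with at least 10 tested genes, with the 3 within-treatment medians as symbols, the fit over all 6 libraries as a bar and the median of all genes as a dashed line. Brackets give the genes tested and the number called higher and lower. Fc receptor, conventional dendritic cell, macrophage and MHC class II lists lie lowest, between -1.37 and -0.92, and mitochondrial, cholesterol, ribosomal and noncoding RNA lists highest, between 0.40 and 0.48, all of which turned negative when scaled to spike-ins.

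Genes that T cell receptor signals induce went in both directions. Of 24, 13 were lower and 7 higher (median -0.26). The lower ones included early AP-1 and nuclear receptor genes, which fade within hours of a signal: Jun was 138, 159 and 143 CPM against 77.6, 87.7 and 82.2 CPM (-0.83 ± 0.07), Fosl2 198, 231 and 236 CPM against 86.2, 88.9 and 115 CPM (-1.21 ± 0.07) and Nr4a2 101, 99.1 and 91.1 CPM against 52.9, 57.3 and 53.6 CPM (-0.83 ± 0.08). Dusp5, a phosphatase that ends ERK signalling, was lower too (-0.70 ± 0.07). Higher ones included Irf4, whose level follows receptor signal strength (0.37 ± 0.07), and Myc, the driver of growth (359, 329.8 and 361 CPM against 479, 439 and 426 CPM, 0.36 ± 0.07). On T cell scaling Irf4 and Myc were at 0.18 and 0.16, and on spike-in scaling at -0.39 and -0.40. Il2ra, the high-affinity chain of the IL-2 receptor, did not pass the test (0.08 ± 0.07).

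Cytokine genes of T cells were higher in 7 of 20 cases and lower in 4, shares close to those of all genes. Lta, lymphotoxin alpha, was 238, 203 and 189 CPM in the first set and 532, 462 and 375 CPM in the second, so that the lowest second-set library lay above the highest of the first (1.11 ± 0.07, adjusted p = 1.09e-18). Ifng was 83.7, 81.8 and 33.8 CPM against 198, 151 and 56.9 CPM (0.98 ± 0.08): in each treatment the second set was higher, but the BiTS library of the second set lay below the isotype and BiTS(mut) libraries of the first. Scaled to the spike-ins the log2 fold changes of Lta and Ifng were 0.35 and 0.20. Tnfsf9, the 4-1BB ligand of activated dendritic cells and T cells, was lower (-0.93 ± 0.10), and Lif higher (0.71 ± 0.07; 0.51 on T cell scaling and -0.06 on spike-in scaling).

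Cytotoxic effector genes split, with 7 of 16 higher and 6 lower. Gzmb, the main granzyme of these cells, overlapped between the sets (2789.6, 2843 and 2619 CPM against 3053, 2496 and 2061 CPM, -0.13 ± 0.07), as did Nkg7 (-0.01 ± 0.07). Perforin, Prf1, was higher within each treatment (77.2, 71.4 and 36.97 CPM against 134, 96.6 and 62.8 CPM, 0.66 ± 0.08; -0.09 scaled to spike-ins). The largest increase of the list was that of Gzmm, a granzyme, at 2.65 (2.48 on T cell scaling and 1.83 on spike-in scaling). It did not meet the CPM and overlap rule for the largest increases. The 6 that were lower included protectors, proteases and granule parts not confined to T cells. These were Ctsc (-1.33 ± 0.07), the largest decrease of the list, Serpinb6b, Serpinb9 (-0.77 ± 0.07), which inhibits granzyme B, Srgn (-0.90 ± 0.07), the granule proteoglycan, and Lamp1. The receptor for IL-18, an amplifier of interferon gamma production, was among the largest increases of the comparison: Il18r1 was 8.36, 6.36 and 8.21 CPM in the first set and 31.1, 30.3 and 28.6 CPM in the second (1.98 ± 0.12; 1.22 scaled to spike-ins). Eomes, a T-box factor of effector and memory CD8 cells, was 8.94, 8.82 and 9.39 CPM against 20.1, 18.5 and 17.2 CPM (1.04 ± 0.13; 0.27 scaled to spike-ins).

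Other factors of effector differentiation were lower, so that the list of 17 had 7 higher and 7 lower. Id2 was 255, 248 and 204 CPM against 100.1, 96.04 and 97.8 CPM (-1.26 ± 0.07), and Bhlhe40, a stress- and cytokine-responsive repressor, 845, 944 and 874 CPM against 469, 469.7 and 497 CPM (-0.89 ± 0.07). Both are expressed in T cells and in dendritic cells. Among naive and memory genes 10 of 18 were lower and 4 higher. Bach2, which restrains effector differentiation, was 72.5, 75.5 and 69.5 CPM against 31.1, 35.9 and 41.3 CPM (-1.01 ± 0.09), whereas the IL-7 receptor gene Il7r (0.52 ± 0.07) and Bcl2 (0.29 ± 0.07) were higher. On spike-in scaling Il7r and Bcl2 were at -0.24 and -0.47, and on T cell scaling at 0.33 and 0.10.

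Inhibitory receptor genes were lower in 7 of 16 cases and higher in 1 (median -0.25). Entpd1, which encodes the ectonucleotidase CD39, was 106, 96.7 and 84.1 CPM against 27.1, 28.9 and 28.1 CPM (-1.76 ± 0.08, adjusted p = 1.48e-22). Havcr2 (TIM-3) was 27.8, 28.9 and 20.1 CPM against 7.15, 8.06 and 7.67 CPM (-1.74 ± 0.13), and Cd244a 31.96, 26.1 and 25.6 CPM against 6.60, 9.87 and 8.99 CPM (-1.71 ± 0.13). Entpd1 and Havcr2 are also expressed by dendritic cells, as is Cd274, the gene of PD-L1 (-1.08 ± 0.08). Lag3, the gene of the receptor that BiTS engages, did not pass the test (542, 589 and 542 CPM against 565, 654 and 633 CPM, 0.15 ± 0.07, adjusted p = 0.0588), and Ctla4 differed by -0.20 ± 0.07 with overlapping sets. Of 21 chemokine and homing receptors, 12 were lower and 1 higher. Cxcr4, the receptor for CXCL12, was 124, 133 and 132 CPM against 40.6, 49.3 and 61.7 CPM (-1.37 ± 0.08).

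Targets of the oxygen-sensing factor HIF-1 were lower in 14 of 17 cases and higher in 2 (median -0.53). Hif1a itself was 454, 437 and 432 CPM against 253, 210.1 and 212 CPM (-0.98 ± 0.07). Ndrg1, a strongly oxygen-responsive gene, was 427, 526 and 475 CPM against 181, 195 and 248 CPM (-1.20 ± 0.07), and Vegfa 224, 249 and 252 CPM against 127, 132 and 156 CPM (-0.81 ± 0.07). The isotype library was the lowest of the second set for both. Glycolytic genes, many of them HIF targets, were lower in 11 of 22 cases and higher in 3 (median -0.16), and the 4 most abundant differed little: Pkm was lower (-0.18 ± 0.06), Ldha higher (0.15 ± 0.07; -0.04 on T cell scaling and -0.61 on spike-in scaling), and Gapdh (0.13 ± 0.06) and Eno1 (0.15 ± 0.07) did not pass the test. Slc2a3 (-0.54 ± 0.07), a glucose transporter, and Pfkp (-0.47 ± 0.06), which commits glucose to glycolysis, were lower.

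Genes of cell death and stress tended to be lower, with exceptions. Of 24 apoptosis regulators tested, 15 were lower and 7 higher (median -0.51). The survival genes Mcl1 (487, 471 and 406 CPM against 272, 263 and 246 CPM, -0.80 ± 0.07) and Cflar (-0.89 ± 0.07), which blocks death receptor signals, were lower, and Bax, an executioner at mitochondria, was higher (0.27 ± 0.07; 0.08 on T cell scaling and -0.49 on spike-in scaling). In the unfolded protein response 10 of 19 were lower and 2 higher, led by Herpud1 (218, 226 and 210.2 CPM against 105, 105 and 96.4 CPM, -1.09 ± 0.07), while the chaperone gene Hspa5 did not pass the test (-0.07 ± 0.07). In the ATF4 list 10 of 18 were lower and 2 higher, with Slc7a11, the cystine transporter, at -1.44 ± 0.12. Of 16 cytosolic heat shock genes 3 were higher and 4 lower. The stress-inducible chaperone genes Hspa1a and Hspa1b, which encode HSP70, were among the largest decreases. Hspa1a was 23.3, 46.1 and 92.1 CPM in the first set and 7.33, 6.08 and 13.6 CPM in the second (-2.52 ± 0.13), so the first-set libraries differed widely among themselves, and Hspa1b, a near-identical copy that may share its reads, did the same (25.6, 52.04 and 87.2 CPM against 8.80, 7.15 and 15.6 CPM).

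Genes of cell growth went the other way on the TMM scale. All 42 cytosolic ribosomal protein genes were higher in the second set (42 of 42 called, 0 lower, median 0.42; 0.23 scaled to T cell genes and -0.34 scaled to spike-ins). Their summed level was 53939, 56696 and 58979 CPM in the first set and 73918, 75620.0 and 76189 CPM in the second, without overlap. Rps15 was 1162, 1208 and 1249 CPM against 1779.9, 1946 and 1958 CPM (0.65 ± 0.06), and Rpsa, also a laminin-binding protein, 3484, 3833 and 4009.8 CPM against 5054, 5434 and 5349 CPM (0.49 ± 0.06). No single gene of the list reached 2-fold, and many have processed pseudogenes to which reads may be split.

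Genes that build ribosomes in the nucleolus were higher in 26 of 32 cases and lower in 0 (median 0.40; 0.21 scaled to T cell genes and -0.36 scaled to spike-ins). Nop56, a core protein of box C/D small nucleolar particles, was 302, 266 and 302 CPM against 589, 562 and 467 CPM (0.89 ± 0.07), and Ppan, needed for the large subunit, 116, 105 and 102 CPM against 228, 238 and 177 CPM (0.98 ± 0.07). The abundant nucleolar proteins Npm1 (-0.11 ± 0.07) and Ncl (0.04 ± 0.07) did not pass the test. Translation initiation and tRNA charging did not follow, with 7 of 29 higher and 10 lower.

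Sterol synthesis and uptake genes were higher in 19 of 25 cases and lower in 0 (median 0.48; 0.28 scaled to T cell genes and -0.29 scaled to spike-ins). Dhcr7, the last enzyme of cholesterol synthesis, was 23.5, 23.4 and 24.8 CPM against 53.4, 48.6 and 46.2 CPM (1.04 ± 0.09). Srebf2, the gene of the factor that controls the pathway, did not pass the test (-0.002 ± 0.07). Fasn, the fatty acid synthase gene, was higher too, at 170.3, 145 and 152 CPM against 382, 330.2 and 290.1 CPM (1.10 ± 0.07; 0.33 scaled to spike-ins), whereas the desaturase gene Scd2 was lower (-0.40 ± 0.07), and the fatty acid list as a whole had 7 of 17 higher and 3 lower.

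Promoters of the sterol list were searched for the CCAAT box and for TCACNCCAC, the core of the sterol regulatory element, on both strands of the 250 upstream bases. CCAAT stood in 16 of 17 promoters with an entry (94.1%), against 37.5% of all genes and 40.5% of genes tested. The sterol element stood in 1 of 17 against 1.22% of all genes, in Hmgcs1, which makes the first committed intermediate of the pathway. Its window is shown with those letters in capitals.
Hmgcs1: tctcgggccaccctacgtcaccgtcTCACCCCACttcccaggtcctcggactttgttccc
The window lies at chr13:119690189-119690248 on the plus strand. Hmgcs1 was 101, 86.4 and 84.3 CPM in the first set and 172, 137 and 138 CPM in the second (0.72 ± 0.07), with the isotype library highest in each set.

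Replication and division genes were higher more often than lower on the TMM scale, by small amounts. DNA replication genes were higher in 17 of 35 cases and lower in 2 (median 0.17), mitosis genes in 14 of 28 and lower in 2 (median 0.17), and both medians were -0.02 on T cell scaling and -0.59 on spike-in scaling. Mki67, the proliferation antigen, was 626, 575 and 609 CPM against 658, 691 and 766 CPM (0.22 ± 0.07), Pcna did not pass the test (-0.004 ± 0.07), and Mcm6 was lower (-0.28 ± 0.07). Dut, which keeps uracil out of DNA, gave the largest increase of the named replication genes (114, 99.02 and 102 CPM against 195, 174 and 160.3 CPM, 0.75 ± 0.07). Of 22 nucleotide synthesis genes 12 were higher and 3 lower (median 0.30; 0.10 on T cell scaling and -0.46 on spike-in scaling).

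Transcripts of the mitochondrial genome were higher in 14 of 15 cases and lower in 0 (median 0.48; 0.29 scaled to T cell genes and -0.28 scaled to spike-ins). The 12S ribosomal RNA, mt-Rnr1, was 2281, 2556 and 2643 CPM against 4789.6, 4443 and 5087 CPM (0.94 ± 0.07), and mt-Nd1, a subunit of complex I, 4843, 5139 and 5635 CPM against 8374, 7477 and 6725 CPM (0.53 ± 0.07). Nuclear genes of the respiratory chain were higher in 13 of 26 cases and lower in 1, with a median of 0.19 that became -0.0044 on T cell scaling and -0.57 on spike-in scaling. A high mitochondrial share is also read as a sign of cell stress or RNA quality, and its part in the other differences was not tested.

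The cytokine-response genes downstream of the common gamma chain receptors were higher in 9 of 21 cases and lower in 5. Cish, a feedback inhibitor that IL-2 induces through STAT5, was 245, 232 and 224 CPM against 381, 353 and 328 CPM (0.60 ± 0.07; 0.40 on T cell scaling and -0.16 on spike-in scaling). Osm, the gene of the cytokine oncostatin M, was 20.2, 16.6 and 19.8 CPM against 38.4, 29.8 and 31.7 CPM (0.82 ± 0.10; 0.06 on spike-in scaling), while the receptor chain Il2rb (-0.04 ± 0.07) and the kinase Pim1 (-0.13 ± 0.07) did not pass the test. Among genes of amino acid supply, 5 of 20 were higher and 9 lower: the glutamine transporter gene Slc1a5 was higher (672, 656 and 674 CPM against 937, 999.8 and 963 CPM, 0.53 ± 0.07; -0.23 on spike-in scaling), the other glutamine transporter gene Slc38a2 was lower (-0.57 ± 0.07), and Slc7a5, which carries leucine, did not pass the test (-0.03 ± 0.07).

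Targets of p53 were lower in 7 of 18 cases and higher in 4. Pmaip1, the BH3-only protein NOXA that counters Mcl1, was 275, 244 and 217 CPM against 112, 102 and 88.97 CPM (-1.28 ± 0.07), without overlap. The cell cycle inhibitor gene Cdkn1a was lower (-0.42 ± 0.07) and Aen, an apoptotic nuclease, higher (0.67 ± 0.08; -0.09 on spike-in scaling). Iron and haem genes were lower in 5 of 9 cases and higher in 0. Slc11a1, the metal transporter NRAMP1 of phagosomes, was 10.9, 10.4 and 8.21 CPM against 2.02, 2.06 and 1.99 CPM (-2.28 ± 0.21), whereas the transferrin receptor gene Tfrc (-0.10 ± 0.07) and ferritin heavy chain Fth1 (-0.02 ± 0.07) did not pass the test. In the NRF2 list 7 of 19 were higher and 6 lower, and Gpx4, which protects membranes from lipid peroxides, was 178, 186 and 189.7 CPM against 300.4, 319 and 305 CPM (0.74 ± 0.07; 0.55 on T cell scaling and -0.02 on spike-in scaling).

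Genes of the cytoskeleton and adhesion were lower in 12 of 22 cases and higher in 5. Vim, the intermediate filament of migrating and haematopoietic cells, was 1375, 1466 and 1204 CPM against 961, 877 and 899.7 CPM (-0.56 ± 0.07), and Itgb1, the beta 1 integrin chain, 256, 261 and 229.5 CPM against 170.4, 168 and 141 CPM (-0.64 ± 0.07). The 2 abundant actins went apart, with Actg1 lower (-0.48 ± 0.07) and Actb higher (0.19 ± 0.06; -0.0049 on T cell scaling and -0.57 on spike-in scaling). Clock genes had the shares of genes at large, with 4 of 14 higher and 4 lower. Per1, an immediate clock gene that also responds to glucocorticoids, was lower (124, 119.8 and 131 CPM against 72.2, 83.4 and 91.2 CPM, -0.60 ± 0.07). Of the X- and Y-linked genes 6 of 8 were lower and 0 higher, on both chromosomes: Ddx3x differed by -0.57 ± 0.07 and Ddx3y by -0.43 ± 0.08. With length and GC as offsets, a fit described below, 3 were lower and 1 higher. The median of the list was then -0.18 in place of -0.40.

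Interferon response genes went in both directions. Of 23 type I response genes 7 were higher and 2 lower (median 0.29; 0.09 on T cell scaling and -0.48 on spike-in scaling), with Stat2 (0.38 ± 0.07) and Mx2 (0.87 ± 0.15) higher and Oasl1 lower (104, 93.95 and 81.3 CPM against 53.3, 48.02 and 43.7 CPM, -0.94 ± 0.08). Of 27 interferon gamma response genes 4 were higher and 9 lower (median -0.06), although Ifng itself was higher on the TMM scale. The guanylate-binding protein gene Gbp2 (-0.65 ± 0.07) and Irf1 (-0.43 ± 0.07) were lower, while Tap1 (-0.07 ± 0.07) and Psmb9 (-0.04 ± 0.07) did not pass the test.

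The largest increases among genes with a CPM of at least 10 in the higher set were those of Lgals7 and Stra6. Lgals7, the gene of galectin-7 (chromosome 7, 28863853 to 28866284), a lectin best known from stratified epithelia, had 9, 7 and 2 counts in the first set and 218, 228 and 190 in the second. In CPM it measured 0.745, 0.454 and 0.148 against 19.98, 18.7 and 17.98 (5.39 ± 0.24, adjusted p = 1.69e-23). The gene was thus barely detected in the first set and present at a uniform level in all 3 libraries of the second. Stra6 (chromosome 9, 58063788 to 58153996), the membrane receptor that takes up retinol from its carrier, was 1.74, 1.88 and 2.14 CPM against 28.6, 25.3 and 21.4 CPM, a 12.9-fold difference (3.69 ± 0.17). The retinoid list as a whole did not go with it: of 13 tested, Stra6 included, 2 were higher and 5 lower. The other higher gene was Tgm2 (0.26 ± 0.07, and -0.50 on spike-in scaling). Cyp26b1, which degrades retinoic acid, was 35.4, 29.8 and 27.3 CPM against 8.89, 9.70 and 8.04 CPM (-1.79 ± 0.12). Galectin and S100 genes were higher in 6 of 12 cases and lower in 2, with Lgals3, abundant in myeloid cells, at -0.96 ± 0.07.

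The other large increases were Tha1, threonine aldolase (5.13, 3.83 and 5.18 CPM against 15.6, 15.5 and 19.97 CPM), Podnl1, a leucine-rich matrix protein (12.6, 12.5 and 9.69 CPM against 42.2, 36.8 and 34.5 CPM), Tfpi, an inhibitor of coagulation (1.61 ± 0.18), Snai3 (1.61 ± 0.14), Xlr3b (1.40 ± 0.12), Car12, a carbonic anhydrase (1.33 ± 0.10), and Sh2d5 (1.32 ± 0.16). Xlr3b belongs to a family of near-identical X-linked copies that may share reads. The other large decreases included Alox5ap, which feeds arachidonic acid to leukotriene synthesis (25.7, 20.2 and 20.998 CPM against 3.67, 3.29 and 6.44 CPM, -2.33 ± 0.16), Fgl2, a secreted regulator of dendritic and T cells (67.7, 62.5 and 63.7 CPM against 17.1, 12.9 and 15.8 CPM, -2.09 ± 0.10), Rgs2 (-2.003 ± 0.11), Gcnt2 (-2.16 ± 0.16), Sept3 (-2.13 ± 0.20), Gbp2b (-2.27 ± 0.18) and Ctla2b (-2.26 ± 0.13). Gbp2b and Ctla2b have close copies that may share their reads.

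Several noncoding transcripts were among the genes that were higher on the TMM scale. Neat1, the scaffold of nuclear paraspeckles (chromosome 19, 5824708 to 5845478), was 179, 135 and 138 CPM in the first set and 449, 445 and 468 CPM in the second (1.605 ± 0.07, adjusted p = 4.06e-23; 0.84 scaled to spike-ins). Of 15 nuclear long noncoding RNAs 11 were higher and 0 lower (median 0.42; 0.22 on T cell scaling and -0.35 on spike-in scaling), including Malat1 (874, 834 and 936 CPM against 942, 1085 and 1282 CPM) and Kcnq1ot1 (1.05 ± 0.10). The 270 tested lincRNAs had a median of 0.31, the 608 processed pseudogenes of 0.38 and the 53 snoRNAs of 0.59, against -0.01 for 11996 protein-coding genes. The shares called higher were near the 25.9% of all genes, at 27.0% of the lincRNAs, 27.8% of the pseudogenes and 30.2% of the snoRNAs, and those called lower were 11.5%, 2.63% and 3.77%. Since the strand setting of the counting is not given, reads of antisense and overlapping transcripts cannot be told apart from those of their partners.

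**Figure D3:**
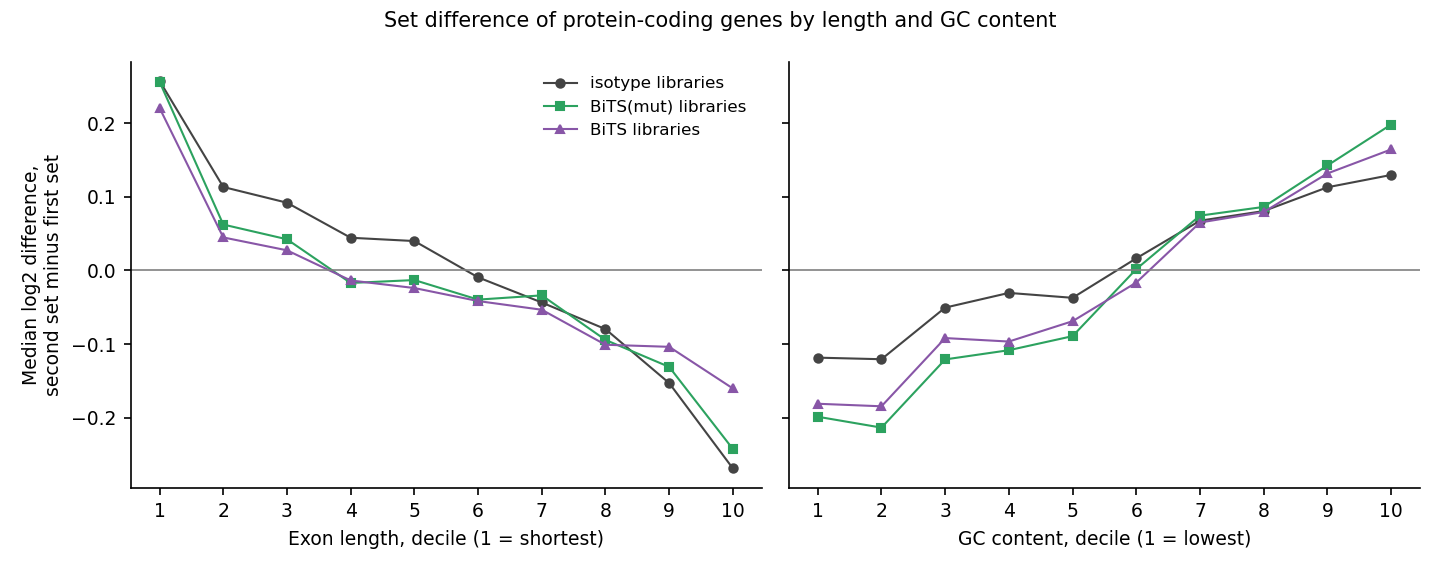
Median log2 difference between the sets (second minus first) within each treatment for protein-coding genes in 10 equal bins of exon length (left) and GC content (right). Short and GC-rich genes were higher and long and GC-poor genes lower in the second set in all 3 treatments, relative to the TMM scale.

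The difference between the sets also followed gene length and base composition. Among protein-coding genes in 10 equal bins of exon length, the median log2 fold change was 0.25 in the shortest bin (90 to 1631 bases) and -0.22 in the longest (9192 bases or more). In the shortest bin 44.2% of genes were higher and 12.8% lower, and in the longest 15.4% and 49.2%. Over 10 bins of GC content the median went from -0.16 in the lowest to 0.18 in the highest. Ribosomal protein genes are short, so their median was refitted with length and GC as offsets, an alternative chosen after seeing the data: it was 0.29 in place of 0.42, with 41 of 42 called higher. The dendritic cell median was -1.23 and the cholesterol median 0.53 in that fit. Some smaller medians shrank: the unfolded protein response list went from -0.16 to -0.05, with 1 higher and 5 lower. The actin and adhesion list went from -0.20 to -0.05, with 3 higher and 10 lower. The interferon gamma response list changed sign, from -0.06 to 0.08, with 7 higher and 9 lower. The 43 spike-in transcripts with a mean count of at least 50, from 505 to 1994 bases long, differed between the sets by -0.20 to 0.41 on the log2 scale once scaled to their total, with medians of 0.02 for those under 994 bases and -0.01 for the others. Across these transcripts the Spearman rho between length and the difference was -0.21, and across 11996 protein-coding genes it was -0.22; both describe 6 shared libraries, and transcripts are not independent replicates. The part of RNA quality or library preparation in these trends was not tested.

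**Figure D4:**
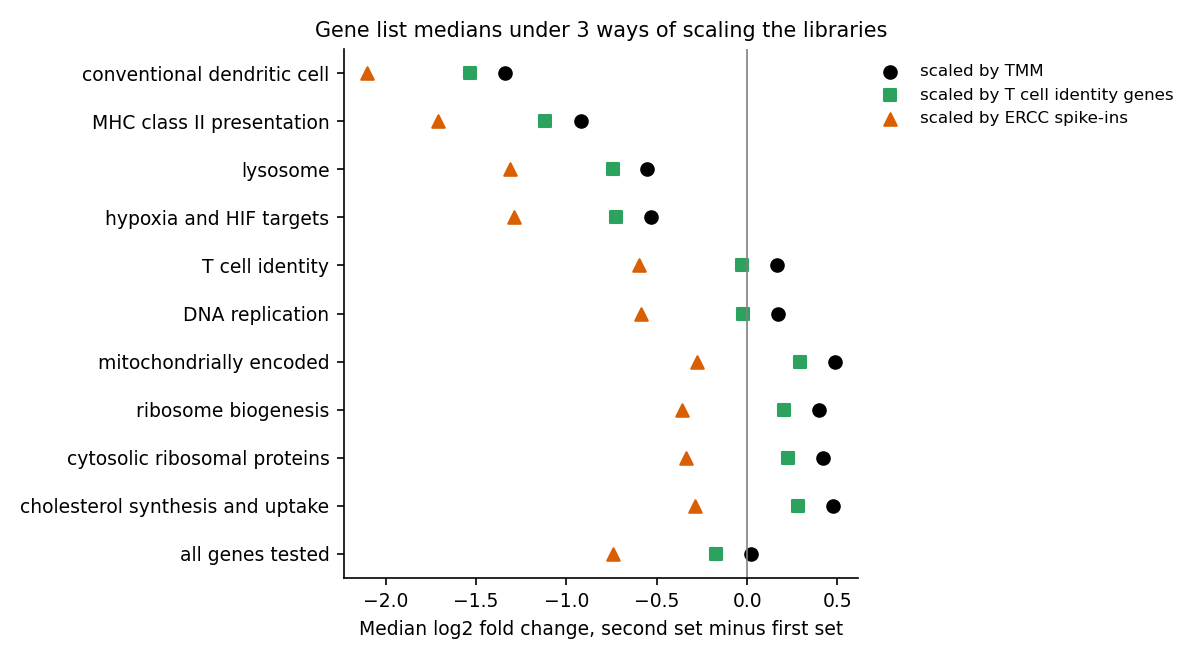
Median log2 fold change (second set minus first set) of 10 gene lists and of all genes tested, with libraries scaled by TMM, by 22 T cell identity genes or by ERCC spike-ins. Dendritic cell, class II, lysosome and HIF lists lie below 0 in all 3, whereas the ribosomal, mitochondrial and cholesterol lists are above 0 on the first 2 scales and below 0 on the spike-in scale, where all genes lie at -0.74.

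Scaling moved all lists by nearly the same amount, so that what changed was the zero point: the conventional dendritic cell list lay at -1.34, -1.53 and -2.10 with TMM, T cell and spike-in scaling, and the ribosomal protein list at 0.42, 0.23 and -0.34. Because the labels name no batch, animal or culture, the set and any such factor cannot be told apart.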

How the data were processed

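RNA was sequenced from 6 libraries of OT-I splenocyte cultures. The authors deposited raw counts per gene, 1 table per library, per the file headers. The submitters' processing notes name mm10 and DESeq2. Not given in the sources used here are the strand setting, the annotation release, the read counter and the aligner. Symbols were taken by identifier from GENCODE M21, which held 49412 of the 49671 identifiers, and the 259 others held 0.0133% of counts. The 92 ERCC rows were left out of totals, filter and scaling. Total gene counts were 10813123 to 15239077 per library, and 3 counts, the limit that a count of 0 allows, were 0.197 to 0.277 CPM. Intervals and limits cover counting error only.

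After filterByExpr and TMM scaling, the sets were compared in R 4.3.3 by the two-sided quasi-likelihood test of edgeR 4.0.16 (with limma 3.58.1), with set and treatment as terms over all 6 libraries and Benjamini-Hochberg adjustment over 13996 genes. Fold changes are second set over first. Values within 1 treatment are differences of log2 CPM with a prior count of 2. On simulated counts for these 13996 genes with 200 changed, 50 of 50 genes changed 2-fold and 50 of 50 changed 4-fold were called, with 3 false calls. Alternatives were other scalings (RLE, library totals, spike-ins, T cell identity genes), other filters, DESeq2 1.42.0, limma-voom, glmTreat, no treatment term, leaving out 6 genes around ribosomal RNA, and leaving out each library or treatment. A length and GC offset was added after seeing the data.

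The 2 sets and the 62 lists, holding 1142 genes of which 970 were tested, were chosen with earlier results of these data known, and no list is independent evidence. The named genes are the 12 largest increases and 12 largest decreases among called genes with a CPM of at least 10, no overlap and a regular symbol, the 4 most abundant and up to 4 called members with the smallest p of each list, 6 markers and defining markers near 0. Named after their values were seen were Clec9a, Xcr1, Cadm1, Zbtb46, Trac, Cd3e and Zap70, which define a cell type, as does Cd8b1 in the plot by library, Myc, Prf1, Gzmm and Trbv12-1, and Mcoln1, Ctsa, Ctsd, Gla and Atp6v1a, which carry the promoter motif. Motifs were searched in RefSeq promoters (GRCm38.p6). The results of some genes of the rule are not reported here.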

Additional observations from a re-analysis of the deposited data

Results flagged for a closer look

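In 3 gene lists the difference between the sets pointed in opposite directions in different treatments. Each within-treatment value compares 1 library with 1 library, so the difference between treatments was not tested. The median log2 difference (second set minus first) of the cholesterol efflux and LXR target genes was 0.13 in isotype and -0.21 in BiTS. That of replication-dependent histone genes was -0.20 in isotype, 0.22 in BiTS(mut) and 0.31 in BiTS. That of cytosolic heat shock genes was 0.19 in isotype and -0.14 in BiTS.

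In data outside the gene counts, the ERCC spike-ins took the highest share of all counts, 7.54%, in the BiTS(mut) library of the second set.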

How the results depend on the processing

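The count of called genes, 7382, was 4993 to 7246 when 1 library was left out, 5316 with DESeq2 and 7391 with limma-voom, and it was 1181 (362 higher, 819 lower) when glmTreat tested against a 1.5-fold change. The count of genes at least 2-fold apart, 1173, was 968 to 1307 when 1 library was left out, 4200 under spike-in scaling and 520 with a CPM of at least 5 in 3 libraries. Of the 301 named genes that were called, 123 were called in every alternative with a test. Opposite signs came from Tnfrsf4 at -0.015 (adjusted p = 0.87, edgeR) and Ptprc at 0.17 (adjusted p = 0.0227, edgeR), both with the length and GC offset, for which the cause was not tested. Opposite signs among medians of at least 0.1 included those of the retinoid list at 0.13 with the CPM minimum of 5, of the histone list at -0.21 with the length and GC offset, and of the clock list at -0.0079 with the CPM minimum of 5, -0.020 without BiTS replicate 3, -0.013 without BiTS replicate 6 (up to 0.14 without BiTS(mut) replicate 5) and -0.017 with only the 4 libraries without BiTS. The cause was not tested. Leaving out each library in turn gave medians of both signs for 8 lists (sizes of at most 0.16 over all 6 libraries), and over all 62 lists the length and GC offset turned 2 medians above 0 negative and 2 below 0 positive. The fit already pairs the sets by treatment, which serves as the block, and without that term 6693 genes were called. A set by treatment term leaves no residual degrees of freedom. Depth limits genes near 3 counts per library, such as the defining macrophage and B cell markers.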
